A study of Mus musculus with 6 samples.

Results

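Mitochondria carry their own ribosomes, which translate a small set of respiratory chain subunits from mitochondrial DNA, while the proteins of these ribosomes are encoded in the nucleus and imported. Nearly all other mitochondrial proteins are imported as well, through the translocase of the outer membrane (Tom) and the translocases of the inner membrane (Tim). The genes of the 2 machineries were taken by name: large ribosomal subunit (Mrpl), small ribosomal subunit (Mrps), Timm and Tomm, each followed by a number. The name pattern itself used no measured value, but it was chosen with earlier results of these data known. It gave 98 genes on 134 probes, of 55681 probes on the array that were not controls, and 96 of the 98 genes could be tested among 13196 genes in all.

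The RNA came from the forelimb autopod, the distal part of the limb bud that becomes the hand, of C57BL/6 mouse embryos at E11.5. Both groups carried the Sox9-EGFP knock-in allele, in which EGFP reports the Sox9 locus, and were separated by the sort: mesenchymal cells positive for Sox9-EGFP, and those negative for it. Sox9 is the transcription factor that starts cartilage formation. Each group had 3 samples of about 10 pooled autopods, hybridised singly to 1-colour Agilent arrays, with a positive and a negative sample on every one of 3 slides. The sources used here do not say whether the samples came from separate litters or sorts, so p-values measure the spread between them.

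All levels below are log2 signals relative to the 75th percentile of the same array, and all differences are positive minus negative cells on that log2 scale, with the standard error (SE) of the limma fit over 3 arrays per group. A gene was called lower or higher where limma's Benjamini-Hochberg adjusted p, over all 13196 genes, was under 0.05. Sox9 itself stood at 3.52, 2.99 and 3.60 in the positive samples and at -0.88, -0.999 and -1.13 in the negative samples. The 75th percentile of the raw signal was 385 to 478 on 5 arrays and 126 on the array of positive replicate 1, which is therefore the dimmest. The median difference of all tested genes was -0.18 rather than 0, so differences are also given relative to that value where it matters.

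Of the 96 tested genes of the mitochondrial ribosome and import machinery, 66 were called lower in Sox9-EGFP positive cells (68.8%) and 0 were called higher. At an unadjusted p under 0.05 there were 83 lower and 0 higher (32.4% and 13.6% of all genes). Over all tested genes, 24.4% were called lower and 10.6% were called higher. Of the 96 genes 95 were well above background on all 6 arrays, with 65 called lower, and Tomm20l passed the filter through the negative samples. The median difference of the 96 genes was -0.58, which is 1.498-fold lower, or -0.41 relative to all genes. The middle of the distribution was narrow, with quartiles of -0.75 and -0.43, and only 6 of the genes called lower differed by 2-fold or more (5.7% of all genes did). In 87 genes the 3 positive samples all lay below the 3 negative samples, against 36.3% of all tested genes. All 96 differences were below 0 in this scaling, beside 8410 of all 13196 genes, and 92 lay below the median of all genes.

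How many genes passed the test depended on the scaling between arrays. With the authors' series matrix values, whose columns share 1 median, 32 were called lower and 0 higher, beside 14.5% and 11.7% of all genes, the median was -0.28 and 87 of 96 differences were below 0. With quantile normalization of the processed signals 28 were called lower (13.3% of all genes), and centring every array on its median tested gene gave 54 (17.0%). Normexp with quantile normalization gave 32 called lower (14.3%) and 1 called higher, Mrpl24 (12.3%). With no filter on background 34 of all 98 genes were called lower, beside 7.41% of all genes. The same 26 genes were called lower under all 5 scalings. How many of all genes were called lower under all 5 was not counted. Brighter genes moved more with the scaling: the 3299 genes with the highest mean level had a median difference of -0.34 in the main scaling and -0.03 after quantile normalization, and 70 of the 96 genes were among them. These 70 stood at -0.57 with 74.3% called lower, beside 39.7% of the 3299, and at -0.22 with 28.6% called lower, beside 12.3%, after quantile normalization.

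**Figure D1:**
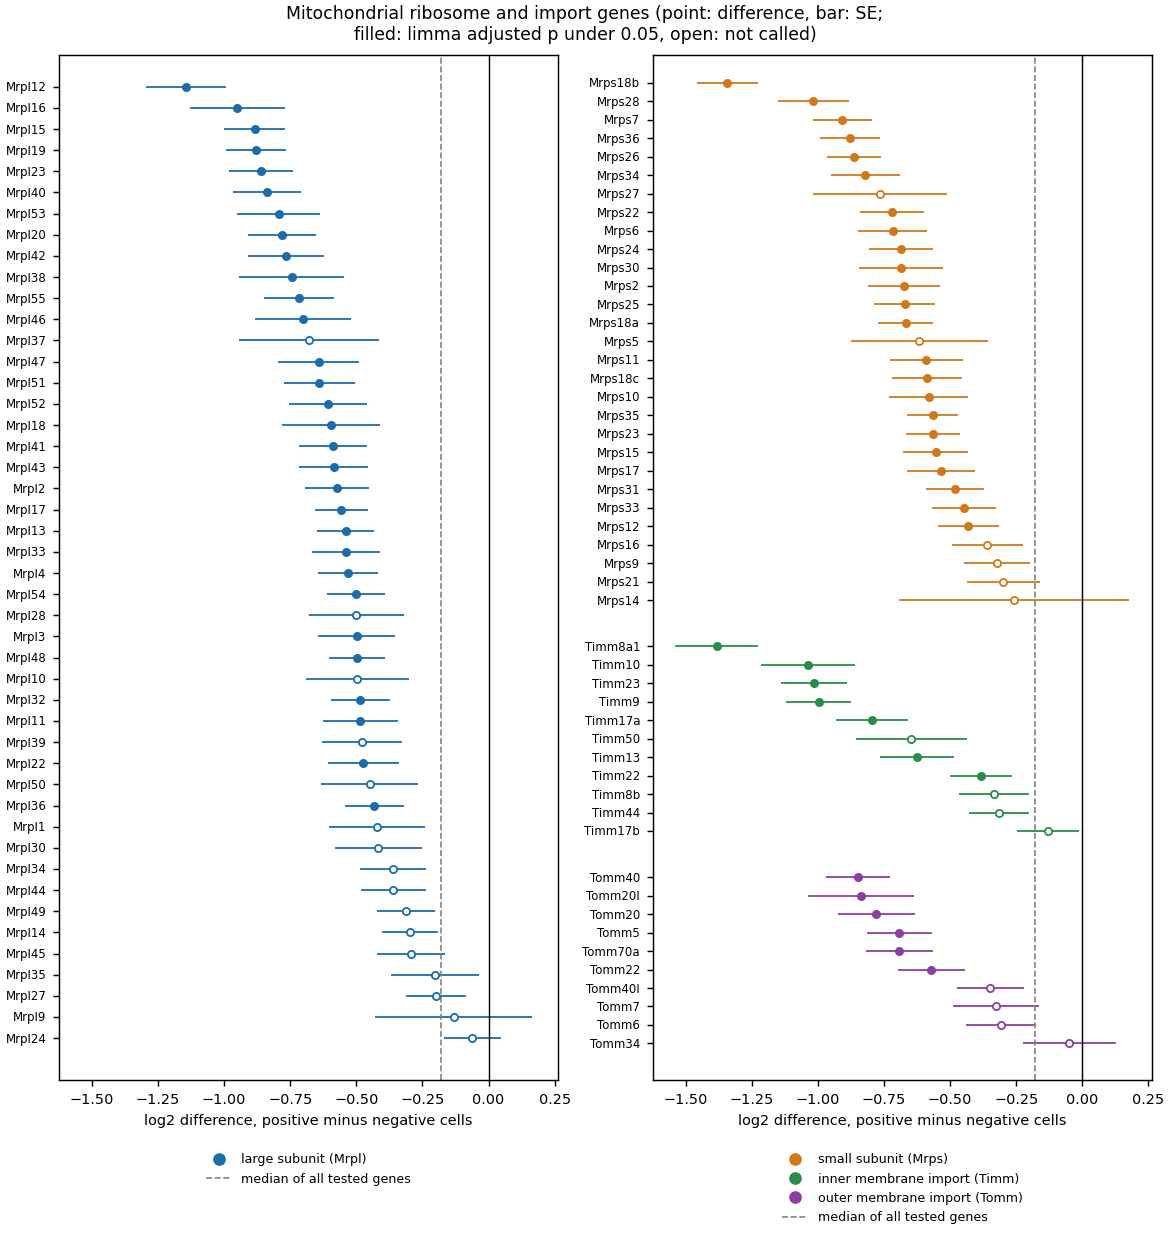
Each point is the log2 difference, positive minus negative cells, of 1 tested gene, with its SE as a bar (3 arrays per group), and filled points passed limma's adjusted p of 0.05. Every point lies left of 0 in this scaling, and the dashed line marks the median of all tested genes at -0.18.

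Genes of both subunits of the ribosome were called lower. Of 46 tested large subunit genes 30 were called lower, with a median of -0.54, and of 29 small subunit genes 23 were called lower, with a median of -0.62, beside 24.4% and -0.18 for all tested genes. Over the 4 other scalings the large subunit median stayed between -0.39 and -0.20, with 8 to 24 genes called lower, and the small subunit median between -0.47 and -0.34, with 11 to 19 called lower, beside 13.3% to 17.0% of all genes. After quantile normalization the large subunit had 8 of 46 called lower (17.4%), near the 13.3% of all genes, and the small subunit 11 of 29 (37.9%). Subunits were counted by gene name, so Mrps18a, a large subunit protein, and Mrps36, both described below, are among the 29. The other names were not checked against the place of the protein, so the 29 may hold more such genes. The difference between the subunits was not tested.

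Mrps18b had the second largest difference of all 96 genes. It is 1 of 3 mammalian paralogs of a single bacterial ribosomal protein. Its level was 3.90, 3.82 and 3.66 in positive samples and 5.09, 5.09 and 5.24 in negative samples. The groups were far apart, by -1.34 ± 0.12 (SE, n = 3 per group, limma adjusted p = 0.00085). The other paralogs differed by less: Mrps18a, which sits in the large subunit in spite of its name, by -0.67 ± 0.10 (adjusted p = 0.0053), and Mrps18c by -0.59 ± 0.13 (adjusted p = 0.018). All 3 were called lower in the main scaling. Mrps18a and Mrps18b were called under all 17 settings tried, whereas Mrps18c kept its direction and was called in 8 of the 16 other settings.

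Mrpl12, the stalk protein of the large subunit, which also binds the mitochondrial RNA polymerase, showed the largest difference of that subunit. It stood at 4.70, 5.06 and 4.77 in positive samples and at 6.07, 5.79 and 6.09 in negative samples. The lowest negative sample was above the highest positive one, and the difference was -1.14 ± 0.15 (adjusted p = 0.0031). Polrmt, the polymerase that Mrpl12 binds, was called lower by a smaller amount, -0.42 ± 0.10 (adjusted p = 0.020), and in 0 of the 4 other scalings, where its adjusted p was 0.091 or more. Mrpl15, a core protein of the large subunit, stood at 3.14, 3.14 and 3.08 against 4.01, 3.86 and 4.15, with 3 nearly equal positive samples and a difference of -0.88 ± 0.12 (adjusted p = 0.0032).

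Among the other large subunit genes with the smallest adjusted p or the highest level, 4 were called lower: Mrpl19 at -0.88 ± 0.11, Mrpl23 at -0.86 ± 0.12, Mrpl40 at -0.84 ± 0.13 and Mrpl20 at -0.78 ± 0.13, with adjusted p between 0.0030 and 0.0065. Each was also called lower under all 17 settings. In the small subunit the same held for Mrps28 at -1.02 ± 0.13, Mrps7 at -0.91 ± 0.11, Mrps36 at -0.88 ± 0.11 and Mrps26 at -0.86 ± 0.10, with adjusted p between 0.0022 and 0.0031. Mrps36 is also known as a component of the 2-oxoglutarate dehydrogenase complex of the citric acid cycle, so its transcript does not serve the ribosome alone.

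Mrps33, of the small subunit, was called lower by -0.45 ± 0.12 (adjusted p = 0.031) but in only 3 of the other settings. Several ribosomal genes did not pass the test. Mrpl1 differed by -0.42 ± 0.18 (adjusted p = 0.12) and Mrps5 by -0.62 ± 0.26 (adjusted p = 0.11). Mrpl24 had nearly equal levels in both groups, with 4.79, 4.83 and 4.65 in positive and 4.77, 4.77 and 4.90 in negative samples. Its difference was -0.06 ± 0.11 (adjusted p = 0.70) and turned to between 0.09 and 0.30 in the 4 other scalings, where it was the single gene called higher after normexp and quantile normalization. The probe of Mrpl21 did not rise well above background in any sample, so the gene was not tested.

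To show what the arrays measured, 3 probes are printed whose genomic interval is longer than the probe, as where a probe crosses an exon junction. They were chosen because they belong to genes with differences among the largest, and each is 60 bases long, 5′ to 3′, with the mm9 interval the files give.
Mrps18b, chr17:36051313-36051461, minus strand: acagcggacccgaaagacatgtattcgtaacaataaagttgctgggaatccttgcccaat
Mrpl15, chr1:4766862-4767644, minus strand: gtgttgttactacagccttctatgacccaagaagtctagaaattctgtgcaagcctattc
Mrps36, chr13:101506215-101509014, minus strand: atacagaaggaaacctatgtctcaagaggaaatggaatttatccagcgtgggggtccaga
These 3 probes differed by -1.17 ± 0.19, -0.88 ± 0.12 and -0.88 ± 0.12 in the fit of single probes, and all 3 were called lower. The printed Mrps18b probe is not the brighter one that gave that gene's levels and its -1.34 above. Those of Mrpl15 and Mrps36 did give the gene values. In all, 14 probes of 14 genes had a genomic interval of more than 100 bases for their 60 bases. All 14 were below 0, with a median of -0.60, and 10 were called lower, beside 21.3% of the 17695 probes in that fit.

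Of the import genes, 13 of 21 were called lower, with a median of -0.65. Of 11 tested Timm genes 7 were called lower, with a median of -0.65, and of 10 Tomm genes 6 were called lower, with a median of -0.63, beside 24.4% of all genes. Without Tomm20l the Tomm count was 5 of 9. In the 4 other scalings the Timm median ranged from -0.50 to -0.34, with 5 or 6 called lower, and the Tomm median from -0.48 to -0.28, with 4 or 5 called lower, beside 13.3% to 17.0% of all genes.

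The small Tim proteins are chaperones of the intermembrane space that carry hydrophobic precursors between the membranes, as hexamers of Timm9 with Timm10 or of Timm8a1 with Timm13. Of their 5 genes among the 96, 4 were called lower, beside 24.4% of all genes, with a median of -0.997. Timm10b, under an older name on the array, and Timm8a2, not tested, are not counted here. In the other scalings 3 or 4 were called lower, beside 13.3% to 17.0% of all genes, and the median ranged from -0.85 to -0.73. Timm8a1, whose human ortholog is mutated in deafness-dystonia syndrome, had the largest difference of all 96 genes. Its level was 2.95, 3.11 and 2.66 in positive samples against 4.30, 4.13 and 4.43 in negative samples. The groups were more than 1 log2 unit apart at their closest, and the difference was -1.38 ± 0.16 (adjusted p = 0.0019).

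Both members of the Timm9 and Timm10 hexamer were called lower by about the same amount. Timm9 stood at 1.16, 1.33 and 1.02 against 2.12, 2.14 and 2.24, a difference of -0.997 ± 0.12 (adjusted p = 0.0025). Timm10 stood at 3.68, 3.29 and 3.08 against 4.37, 4.28 and 4.51, a difference of -1.04 ± 0.18 (adjusted p = 0.0071). Its positive samples were more spread than its negative ones, with no overlap. Timm13, the partner of Timm8a1, was lower by -0.63 ± 0.14 (adjusted p = 0.017) and was called in 1 of the 4 other scalings. Timm8b, a paralog of Timm8a1, did not pass, at -0.33 ± 0.13 (adjusted p = 0.095), and stood at 0.01 after normexp and quantile normalization.

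The Tim23 complex imports proteins with a cleavable presequence. Timm23 forms its channel with Timm17a or Timm17b, Timm50 is its receptor, and Timm44 tethers the Hsp70 motor on the matrix side. Timm23 stood at 4.46, 4.58 and 4.35 in positive samples and at 5.49, 5.34 and 5.61 in negative samples, again without overlap. Its difference was -1.01 ± 0.12 (adjusted p = 0.0026), and it was called lower under all 17 settings.

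The 2 forms of Timm17 behaved differently from each other. Timm17a was called lower under all 17 settings, with 4.32, 4.33 and 4.21 in positive and 5.04, 4.90 and 5.31 in negative samples, a difference of -0.80 ± 0.14 (adjusted p = 0.0072). Timm17b overlapped between the groups, with 5.26, 5.22 and 5.02 in positive and 5.30, 5.21 and 5.38 in negative samples. Its difference was -0.13 ± 0.12 (adjusted p = 0.43), which turned to 0.27 with normexp, to 0.25 with quantile normalization, to 0.24 in the series matrix and to 0.02 after centring, without being called. The difference between the 2 paralogs was not itself tested. Timm50 missed the threshold, at -0.65 ± 0.21 (adjusted p = 0.055), as did Timm44, at -0.31 ± 0.11 (adjusted p = 0.076), which stood at or just above 0 in 3 of the scalings. Timm22, the channel that inserts carrier proteins, was called by a small margin, at -0.38 ± 0.12 (adjusted p = 0.047), and in only 2 of the other settings. Timm8a2 was well above background on 1 array of 6 and was not tested.

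In the outer membrane, all 3 receptors of the Tom complex were called lower in the main scaling and after centring, and 2 of 3 in the other 3 scalings. Tomm20, the main presequence receptor, stood at 5.18, 5.18 and 4.83 in positive samples and at 5.80, 5.73 and 5.99 in negative samples. The groups did not overlap, and the difference was -0.78 ± 0.15 (adjusted p = 0.0094). Tomm70a, the receptor of carrier precursors, differed by -0.69 ± 0.13 (adjusted p = 0.0091) and Tomm22 by -0.57 ± 0.13 (adjusted p = 0.017), with a call in 8 of the 16 other settings and adjusted p of up to 0.18. Tomm40, the pore, stood at 3.73, 3.85 and 3.78 against 4.80, 4.49 and 4.61, with a difference of -0.85 ± 0.12 (adjusted p = 0.0040). It was the single Tomm gene called lower under all 17 settings.

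Of the small subunits around the pore, Tomm5 was called lower, at -0.69 ± 0.12 (adjusted p = 0.0080), whereas Tomm7 stood at -0.33 ± 0.16 (adjusted p = 0.17) and Tomm6 at -0.31 ± 0.13 (adjusted p = 0.12), which turned to above 0 in 3 of the 4 other scalings, by up to 0.056. Tomm40l, a paralog of Tomm40, did not pass, at -0.35 ± 0.13 (adjusted p = 0.076). Tomm34, which carries the family name but is a cytosolic cofactor of chaperones, overlapped between the groups. It stood at 3.81, 3.17 and 3.46 in positive and 3.49, 3.52 and 3.57 in negative samples, a difference of -0.05 ± 0.17 (adjusted p = 0.85) that turned to between 0.10 and 0.25 in the 4 other scalings. Tomm20l was called lower at -0.84 ± 0.20 (adjusted p = 0.021), but its probe was dim, was well above background on only 2 of 3 positive arrays, and so was kept through the group where it is higher. It has no genome position in the files.

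**Figure D2:**
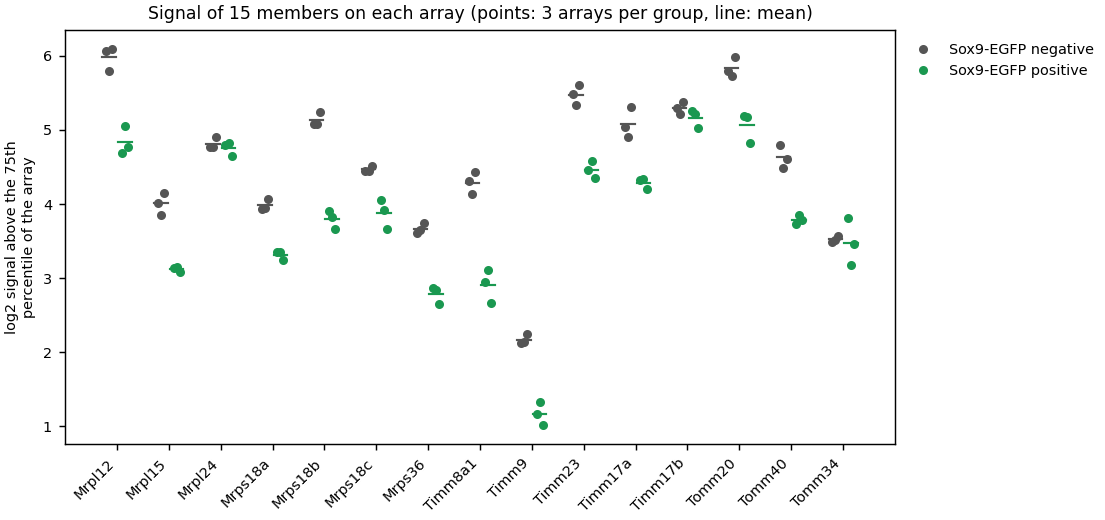
Points are the log2 signals of 15 genes on each array relative to that array's 75th percentile, 3 Sox9-EGFP negative (grey) and 3 positive (green), with lines at the group means. Green lies below grey without overlap except in Mrpl24, Timm17b and Tomm34, and heights are not comparable between genes.

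The slides gave the same direction with different sizes. The median difference of the 96 genes was -0.46 on the first slide, -0.56 on the second and -0.72 on the third, against -0.14, -0.20 and -0.21 for all genes. On all 3 slides 90 of the 96 genes were below 0, beside 6175 of all 13196 genes. The array of positive replicate 1, with its low signal, lies on the first slide, and its part in the smaller value there was not tested. With slide as a block 70 genes were called lower (27.3% of all genes). Leaving out 1 array moved the count more than the median: 37 genes were called lower when positive replicate 3 was left out, 36 without negative replicate 1 and 33 without negative replicate 3, beside 14.7%, 12.3% and 12.05% of all genes, while the medians were -0.52, -0.57 and -0.55. The calls of 32 genes held with each array left out, which was not counted for all genes.

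**Figure D3:**
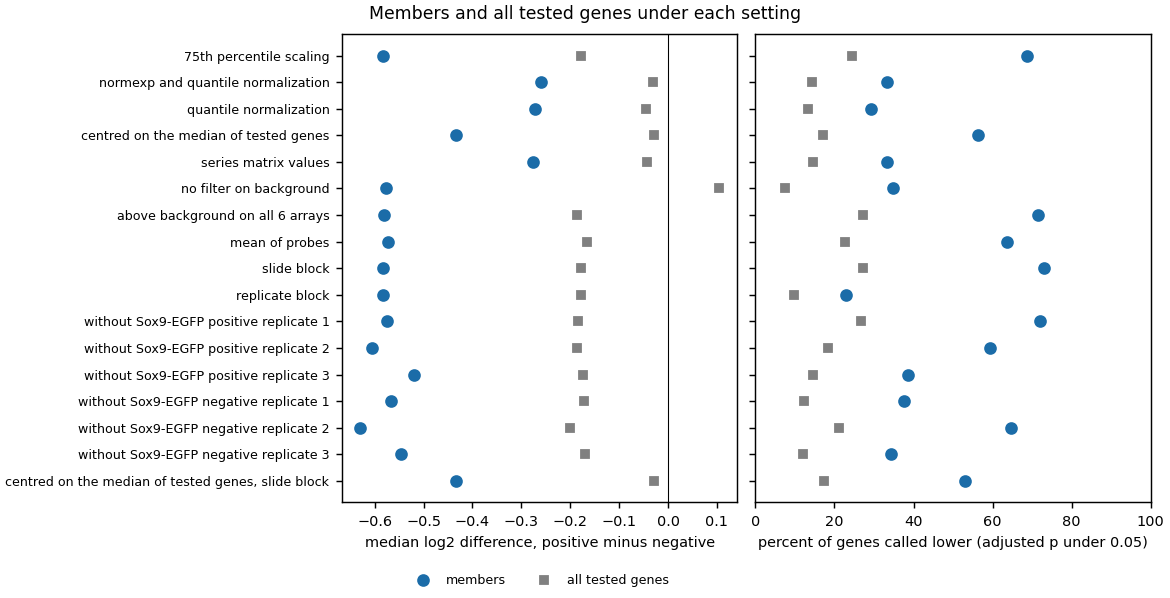
The left panel gives the median log2 difference (positive minus negative) and the right panel the percent of genes called lower, for the mitochondrial ribosome and import genes (circles) and all tested genes (squares), under each of 17 settings. The circles lie left of the squares on the left panel and right of them on the right panel in every setting, and the percent called ranges from 22.9 to 72.9.

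Different probes of a gene mostly gave the same answer. Of the 98 genes 34 had more than 1 probe, and 35 pairs of probes could be set side by side within 33 genes. In 34 pairs both probes were below 0, the median absolute gap was 0.08 and 27 pairs lay within 0.2 of each other. No gene had probes called in opposite directions. The exception in sign was Mrps25, whose brighter probe gave -0.67 ± 0.12 and whose other probe gave 0.15 ± 0.14. Mrpl9 also differed, at -0.13 ± 0.30 for the brighter probe and -0.85 ± 0.17 for a dimmer one, which was well above background on only 2 of 3 positive arrays and was kept through the negative samples. These 2 genes were chosen after their values were seen. The 2 probes of Timm8a1 gave -1.38 and -1.59, and those of Timm23 gave -1.01 and -1.03.

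**Figure D4:**
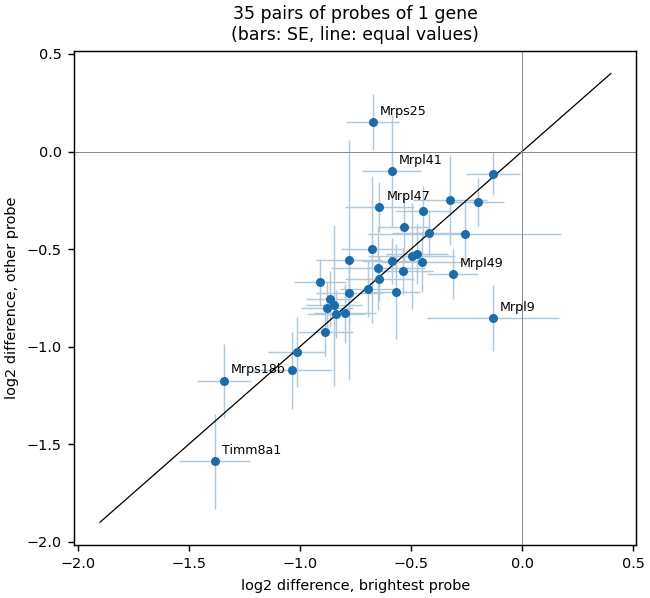
Each point is 1 pair of probes of the same gene, with the log2 difference (positive minus negative) of the brightest probe on the x axis, that of another probe on the y axis, SE bars and the line of equal values. All pairs except that of Mrps25 lie below 0 on both axes.

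Another 5 genes of the same machineries carry older names on the array and so fell outside the selection by name. Of these, 3 were called lower, beside 24.4% of all genes: Mrpl57 at -0.85 ± 0.12, Mrpl58 at -0.52 ± 0.11 and Timm10b at -0.56 ± 0.12. Timm21 stood at -0.20 ± 0.13 and Timm29 at -0.43 ± 0.19, neither of them called. Mrpl57 was called in all 4 other scalings, and Mrpl58 and Timm10b in 1 each. Of 6 other mitoribosomal proteins 5 were called lower and 0 higher, beside 24.4% and 10.6% of all genes. Their median was -0.58, and Ptcd3 among them stood at -0.72 ± 0.11. In the other scalings 1 to 4 of the 6 were called lower, with medians of -0.43 to -0.25, beside 13.3% to 17.0% of all genes. One of these 6 is Mrpl58, the peptidyl-tRNA hydrolase of the large subunit.

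In the main scaling the genes that build and use the mitochondrial ribosome had smaller median differences than the ribosomal genes themselves, at -0.57. They were also dimmer, with median levels of 1.02 to 1.92 in the 4 lists that follow, beside 3.93. After quantile normalization the 4 medians lay between -0.21 and -0.13, beside -0.21 for the large and -0.36 for the small subunit genes. Of 20 assembly factors 7 were called lower and 0 higher, with a median of -0.37, led by the rRNA methyltransferase Mrm1 at -1.15 ± 0.11 (adjusted p = 0.0013). Of 14 translation factors 7 were called lower, with a median of -0.42, among them the elongation factors Gfm1 at -0.94 ± 0.13 and Tufm at -0.75 ± 0.11, the second of which was called in 1 of the 4 other scalings. Mtif2, the initiation factor, lay the other way at 0.49 ± 0.17 (adjusted p = 0.066) and was called higher in all 4 other scalings. Of 19 mitochondrial tRNA synthetases and amidotransferase subunits 8 were called lower and 0 higher, with a median of -0.33. Of 13 genes of mitochondrial DNA maintenance and transcription 4 were called lower and 0 higher, with a median of -0.35. The 4 lists thus had 35%, 50%, 42.1% and 30.8% called lower in the main scaling. Over all genes, 24.4% were called lower and 10.6% higher there. In the other scalings these 4 lists had 4, 3 to 4, 4 to 5 and 1 to 2 genes called lower, in the same order, beside 13.3% to 17.0% of all genes, and Mterf2 was called higher in all 4. Their medians then lay between -0.22 and -0.16, -0.27 and -0.11, -0.21 and -0.18, and -0.20 and -0.16, so that these counts are few and near the share of all genes in several scalings.

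Of 29 other import and assembly genes 17 were called lower and 0 higher, beside 24.4% and 10.6% of all genes, with a median of -0.57. In the other scalings 9 to 11 were called lower, beside 13.3% to 17.0% of all genes, and the median ranged from -0.42 to -0.32. Hspd1, the matrix chaperonin that folds imported proteins, stood at 6.01, 5.77 and 5.50 in positive and 7.03, 7.14 and 7.19 in negative samples, a difference of -1.36 ± 0.15 (adjusted p = 0.0019). Chchd4 and Gfer, the oxidoreductase pair that oxidizes small Tim proteins on their way in, were lower by -1.27 ± 0.15 (adjusted p = 0.0023) and -0.86 ± 0.11 (adjusted p = 0.0028). All of these are among the lowest adjusted p of their list.

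Neighbouring gene groups give the scale of the shift. Of 32 genes of the citric acid cycle, mitochondrial membranes and dynamics 23 were called lower and 0 higher, with a median of -0.52. Over all genes 24.4% were called lower and 10.6% higher. In the other scalings 8 to 11 of the 32 were called lower, beside 13.3% to 17.0% of all genes. Of 74 respiratory chain and ATP synthase subunits 32 were called lower and 0 higher, with a median of -0.42, but after quantile normalization their median was -0.08 with 8 called lower (10.8%, beside 13.3% of all genes), and centring gave -0.27 with 11 called lower (14.9%, beside 17.0%). Of 77 cytosolic ribosomal protein genes 3 were called lower and 0 higher, with a median of -0.12, beside -0.18 for all genes. Their place relative to all genes turned with the scaling: the median was 0.03 after centring and -0.03 after quantile normalization, beside -0.03 and -0.04 for all genes, but -0.06 with normexp and -0.20 in the series matrix, beside -0.03 and -0.04. In the series matrix the Mrpl median was -0.205 and that of the respiratory chain -0.12. The slide medians of the cytosolic ribosomal protein genes were 0.19, -0.15 and -0.44, so these genes also varied more between slides than the mitochondrial ribosomal genes did. No test between these lists was made.

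**Figure D5:**
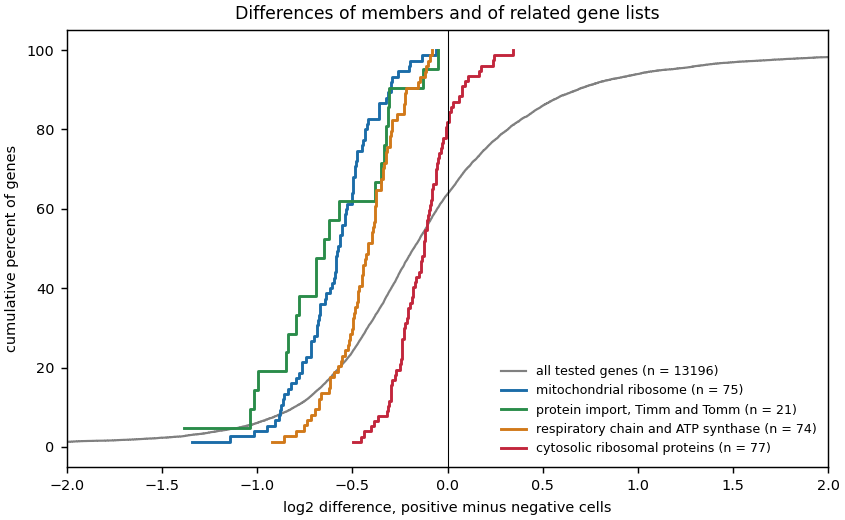
Lines give the cumulative percent of genes at or below each log2 difference (positive minus negative) for mitochondrial ribosomal genes, Timm and Tomm genes, respiratory chain subunits, cytosolic ribosomal protein genes and all 13196 tested genes, on the 75th percentile scaling. The mitochondrial ribosome and import lines lie left of the respiratory chain, with medians of -0.57, -0.65 and -0.42, and the cytosolic ribosome lies right of all 3, at -0.12.

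Genes known to regulate mitochondrial biogenesis were mixed. Of 15 tested, 6 were called lower and 0 higher, with a median of -0.39, beside 24.4% of all genes. In the other scalings 2 to 4 were called lower, with a median of -0.24 to -0.23, beside 13.3% to 17.0%. Mycn, a transcription factor that promotes growth and ribosome production, stood at 3.01, 2.63 and 2.46 in positive and 4.65, 4.70 and 5.09 in negative samples, a difference of -2.11 ± 0.20 (adjusted p = 0.0010). Esrra, a nuclear receptor of mitochondrial genes, was lower by -1.09 ± 0.11 (adjusted p = 0.0012), and Atf4, a factor of the stress response, by -0.74 ± 0.13 (adjusted p = 0.0084). Mycn and Esrra were called lower in all 4 other scalings and Atf4 in 2. Ppargc1a at 0.40 ± 0.29 (adjusted p = 0.32) and Myc at 0.54 ± 0.33 (adjusted p = 0.26) lay above 0 without being called. Of the factors whose motifs are counted below, and named for that reason, Nrf1 stood at -0.33 ± 0.15 (adjusted p = 0.14), Gabpa at -0.39 ± 0.29 (adjusted p = 0.34) and Yy1 at -0.43 ± 0.13 (adjusted p = 0.045, called in none of the 4 other scalings).

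Promoters from RefSeq (GRCm38.p6, 250 bases before to 50 after the start of transcription) were found for 87 of the 98 genes. Next, 3 motifs known from genes of mitochondrial proteins were searched on both strands: that of NRF1, CCGGAAGT for ETS factors such as GABPA, and AAGATGGCG for YY1. At least 1 of them was found in 37 of the 87 promoters (42.5%) and in 21.3% of the promoters of the other 10319 tested genes. ETS matches were in 18.4% against 8.67%, YY1 matches in 10.3% against 3.43% and NRF1 matches in 16.1% against 11.05%. The E-box CACGTG, a site of the Myc family and others, was in 11.49% against 11.7%, and CCAAT was in 39.1% against 43.3%. GC content was 58.8% against 60.6%. Over all 27025 genes with a promoter the shares were 5.19% for NRF1, 4.31% for ETS, 1.64% for YY1, 8.09% for the E-box and 41.1% for CCAAT.

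The following stretches lie upstream of the start, are written 5′ to 3′ on the strand of the gene and were chosen, for each of 4 motifs, as those of the 2 genes with the largest differences among called genes whose match lies wholly before the start. Genes with a match only after the start, such as Timm10 for ETS and Mrpl42 and Mrps18a for YY1, are therefore not shown. Capitals mark the matches, on either strand.
Mrpl12, NRF1, chr11:120484511-120484610, plus strand: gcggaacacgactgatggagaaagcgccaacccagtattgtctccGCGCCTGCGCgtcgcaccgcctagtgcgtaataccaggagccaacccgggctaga
Tomm20, NRF1, chr8:126945922-126945986, minus strand: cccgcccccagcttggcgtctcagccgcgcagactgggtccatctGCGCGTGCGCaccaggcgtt
Timm23, ETS, chr14:32201892-32201984, minus strand: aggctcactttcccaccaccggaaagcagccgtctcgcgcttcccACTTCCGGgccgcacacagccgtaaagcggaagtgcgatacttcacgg
Mrps26, ETS, chr2:130563697-130563756, plus strand: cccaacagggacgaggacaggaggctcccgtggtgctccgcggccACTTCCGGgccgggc
Mrps11, YY1, chr7:78782978-78783076, plus strand: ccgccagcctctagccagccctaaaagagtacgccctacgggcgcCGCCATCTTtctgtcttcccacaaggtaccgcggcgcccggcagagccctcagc
Mrpl36, YY1 and E-box, chr13:73330933-73331008, plus strand: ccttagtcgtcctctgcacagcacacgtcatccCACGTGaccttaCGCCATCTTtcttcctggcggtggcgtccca
Timm8a1, E-box, chrX:134541856-134541920, minus strand: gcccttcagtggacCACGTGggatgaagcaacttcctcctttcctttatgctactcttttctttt
Timm9, E-box, chr12:71136683-71136778, minus strand: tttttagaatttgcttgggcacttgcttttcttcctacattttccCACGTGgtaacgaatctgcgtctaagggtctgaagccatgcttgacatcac
These genes differed by -1.14, -0.78, -1.01, -0.86, -0.59, -0.43, -1.38 and -0.997, with all 8 called lower since they were taken from the called genes.

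Genes with and without a motif overlapped widely in their differences. The 10 tested genes with an E-box had a median of -0.78, with 9 called lower, against -0.57 and 48 called lower of the 75 without one. The 14 genes with an NRF1 match had a median of -0.39, with 5 called lower, against -0.60 and 52 of 71. For ETS matches the medians were -0.61 with and -0.57 without, for YY1 -0.67 and -0.57, and for CCAAT -0.56 and -0.59. None of these differences was tested, and a match is a run of letters in this window, not a measured binding site.

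Markers of the sorted cells and of other cell types moved with the groups too. Of 7 chondroprogenitor markers 5 were called higher and 0 lower, and their summed linear signal, in units of the array's 75th percentile, was 295 to 332 in positive and 66.3 to 91.1 in negative samples. Of 7 limb mesenchyme markers 4 were called lower and 1 higher, with sums of 91.0 to 92.2 against 252 to 259. Of 5 tested ectoderm markers 3 were called higher, namely Krt18, Krt8 and Trp63. Epcam at -0.43 ± 0.22 (adjusted p = 0.17) and Krt14 at -0.03 ± 0.27 (adjusted p = 0.94) were not called. The ectoderm sums were 22.2 to 36.6 against 9.17 to 11.53 and came mostly from Trp63 and Krt18, the brightest of these markers. Cdh1 and Krt5 were not tested for lack of signal. Muscle precursor sums were 0.12 to 0.18 against 0.58 to 1.29, with Myf5 and Pax7 without enough signal. Of the 3 muscle genes called lower, Lbx1 was well above background on 1 of 3 positive arrays and Pax3 and Myod1 on 0, so they were tested through the negative samples and the low positive sums hold mostly background. Of neural crest markers, Ngfr was lower by -4.89 ± 0.13 (adjusted p = 5.7e-05) and Sox10 higher by 1.70 ± 0.43 (adjusted p = 0.025), the latter well above background on 1 of 3 negative arrays.

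The summed signals of blood, vessel and macrophage markers overlapped between the groups. Erythroid sums were 1.06 to 4.89 in positive and 1.68 to 42.9 in negative samples. Endothelial sums were 2.75 to 7.84 and 1.85 to 4.69, and macrophage sums 0.67 to 1.74 and 0.34 to 11.1. Of the tested markers, 0 of 4, 0 of 2 and 0 of 1 were called. The highest erythroid and macrophage sums were those of negative replicate 2, where Hbb-y stood at 4.72 and Csf1r at 3.47. All 4 tested erythroid markers were below 0, with a median of -1.41. Among them only Hba-a1 did not overlap, at -1.24, -3.01 and -1.64 in positive and -0.41, 2.67 and -0.85 in negative samples. Its difference was -2.44 ± 0.98 (adjusted p = 0.10). Of 12 cell cycle genes 7 were called lower and 0 higher, beside 24.4% and 10.6% of all genes, with a median of -0.62. In the other scalings 4 to 7 were called lower, beside 13.3% to 17.0% of all genes, and the median ranged from -0.47 to -0.30. The part of these cell types and of the cell cycle in the shift of the mitochondrial genes was not tested. In bulk RNA, fewer cells of a type and less RNA per cell cannot be told apart.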

How the data were processed

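Gene expression was measured in 3 Sox9-EGFP positive and 3 negative samples, grouped by their labels. Per the file headers, the deposited intensity values are the processed signals of Feature Extraction 10.7.3.1, background-corrected within each array by the authors' software, with no step between arrays. Log2 values were deposited in the series matrix, and its 6 columns share 1 median of 6.41, minimum of 5.65 and maximum of 18.7, as quantile normalization gives. How their background was corrected is not stated in those sources.

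Processed signals were taken as log2 values minus the array's own 75th percentile (over 59305 spots that were not controls), and replicate spots were averaged. Spots marked as outliers were left out. Probes were named through their transcript accession or symbol in the RefSeq gene table for mouse (28698 of 55681 probes), kept if every array of 1 group or more had them well above background, and reduced to the brightest probe per gene. This filter can keep a gene through the group where it is higher, and 11763 of the 13196 genes were above background on all 6 arrays. Probe coordinates are those of mm9. The positive and negative groups were set against each other in limma 3.58.1, run in R 4.3.3 (lmFit and eBayes, Benjamini-Hochberg adjustment over all genes, threshold 0.05), and the fit was tested on simulated data. The smallest exact p for 3 against 3 arrays is 0.1, so the calls draw on limma's sharing of variance across genes. The number of arrays limits the precision.

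The genes and lists were chosen with earlier results of these data known. Genes were named by rule: up to 5 called genes per class with the smallest adjusted p, the highest and lowest level of each class, 16 set members of the complexes, and up to 3 called genes in each other list. Mrpl24, Mrps25, Mrpl9, Mrpl21, Timm8a2, Timm13, Tomm6, Mtif2, Mterf2, Nrf1, Gabpa and Yy1 and the genes with older names were added after their values were seen or to complete a complex. Ppargc1a, Myc, Epcam, Krt14, Hba-a1, Hbb-y and Csf1r were also added after their values were seen. Slide and replicate number were tried as blocks. Deviations from the group means correlated by 0.46, 0.36 and 0.23 within slides and by -0.27, -0.42 and 0.16 within replicate numbers, so the numbers were not taken to pair samples. The other alternatives were 4 scalings, 2 filters, the mean of probes and leaving out each array. The sequence of 1 probe and the sum of 1 list of marker genes are not reported here.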

Additional observations from a re-analysis of the deposited data

How the results depend on the processing

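The direction of the median difference was the same under all 17 settings, and 22 genes were called lower in each of them. The matching share of all genes was not counted. The number called lower (66) was 32 with normexp and quantile normalization, which also called 1 gene higher, 28 with quantile normalization, 32 with the series matrix values and 34 with no filter on background. The median (-0.58) was -0.26, -0.27 and -0.28 with normexp, quantile normalization and the series matrix, and -0.43 after centring, with or without a slide block. Leaving out 1 array gave 33 to 69 genes called lower and 2485 to 5176 called in all. Without the filter 2656 of all tested genes were called (4617 in the main setting). In 3 of the scalings and after centring, 53.7% to 55.4% of called genes were lower, against 69.7%.

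The replicate numbers did not pair the samples. With the replicate number as a block 22 genes (9.86% of all genes) were called lower, and 2157 of all genes were called.

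Single genes changed sign without being called. Timm17b stood at 0.27, 0.25, 0.24 and 0.021 with normexp, quantile normalization, the series matrix and centring (0.021 with a slide block). Timm44 stood at 0.025, 0.0099 and 0.0033 in the first 3, and Timm8b at 0.0084 with normexp. Tomm34 stood at 0.24, 0.25, 0.22 and 0.10 in the same 4 (0.10 with a slide block) and ranged from -0.21 to 0.11 over the arrays left out, highest without positive replicate 2. Over 559 comparisons of 35 named genes with their main value, 484 kept direction and call, 54 lost and 6 gained the call and 15 reversed. The causes were not tested. Centring with a slide block was chosen after seeing the data.

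The dimmest array, positive replicate 1, had 24743 spots well above background and the others 29800 to 35277, which limits what can be said of dim genes such as Timm8a2 and Mrpl21.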
